A study of Mus musculus with 4 samples.

Results

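The genes of voltage-gated sodium and calcium channels were described in RNA-seq of sympathetic ganglia (SG) from thoracic levels T1 to T4, the ganglia whose neurons reach interscapular brown fat. The members were all mouse genes named *Scn* with a number and the letter a or b, or with a name that begins with *Cacn*, apart from 3 genes set aside. This rule was met by 37 genes, of which 36 were listed in at least 1 of the 4 deposited tables, among 17667 genes listed in any table, and 34 were listed in all 4, among 15275. The remaining gene, *Cacng6*, was listed in none. Each library was a pool of ganglia from several C57BL/6 mice aged 12 weeks that had spent 1 day at 5 °C, so that cold exposure was common to all groups. There were 2 libraries from wild-type mice (WT 1 and WT 2), 1 from TRKC+/- mice, which carry a single working allele of the receptor for neurotrophin-3 (NT-3), and 1 from AdNTF3-Tg mice. In AdNTF3-Tg mice the coding sequence of NT-3 is driven by an adiponectin promoter, which is active in adipocytes. The labels do not say which WT library belongs with which mutant, so each mutant library was set beside both. Because each mutant group was 1 pool, the spread between mice of a group was not measured.

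Voltage-gated sodium channels open when a neuron is depolarised and carry the upstroke of the action potential. The pore is a single large alpha subunit, and small beta subunits alter its gating and its place in the membrane. Voltage-gated calcium channels turn the action potential into a calcium signal: the Cav2 channels trigger transmitter release, the Cav1 (L-type) channels couple firing to gene transcription, and the Cav3 (T-type) channels open near the resting potential. The calcium channel pore, alpha1, is assembled with an alpha2delta subunit and a cytoplasmic beta subunit, both of which raise the number of channels at the surface. The gamma family holds a skeletal muscle calcium channel subunit and several proteins best known as partners of AMPA-type glutamate receptors.

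Each library held 8665955 to 8894985 reads assigned to genes, and 3 reads came to 0.337 to 0.346 CPM (reads scaled to library depth). Levels are given as FPKM (fragments scaled to gene length and library depth), the only one of the deposited scales on which different genes can be compared. Sympathetic neuron markers were strong in all 4 libraries, with *Th* (tyrosine hydroxylase) at 2576 to 2753 FPKM. In either mutant, 0 of the 12 markers were 0.5 or more away from both WT libraries on the log2 scale. Some smaller differences had 95% counting intervals that left out 0 against both WT libraries. In AdNTF3-Tg these were lower in *Th*, *Npy* (-0.33 and -0.20) and *Phox2a* and higher in *Slc6a2*. In TRKC+/- they were all higher, among them *Phox2a* (0.15 and 0.15). *Pnmt*, the defining enzyme of adrenal chromaffin cells, was listed in no table. Of 10 sensory neuron markers, *Avil* (195 to 207 FPKM) and *Ntrk2* (31.7 to 33.0 FPKM) were high, *Drgx* was listed in no table, and *Trpv1*, *Mrgprd*, *Pou4f1* and *P2rx3* stayed near or below 1 FPKM. The sensory markers *Tlx3* and *Mrgprd* were at least 0.5 higher in AdNTF3-Tg than in both WT libraries. In the order WT 1, WT 2, TRKC+/- and AdNTF3-Tg, *Tlx3* had 7, 10, 8 and 18 reads and *Mrgprd* had 1, 4, 0 and 8. For neither gene did the 95% counting intervals leave out 0 against both WT libraries. The 12 skeletal muscle markers summed to 1518 reads in WT 1, 50 in WT 2, 687 in the TRKC+/- library and 518 in the AdNTF3-Tg library. *Ucp1*, the uncoupling protein of brown adipocytes, was at 47.33, 48.14, 7.80 and 37.81 FPKM in the same order, and the 6 adipocyte markers summed to 2692, 2455, 1432 and 2015 reads. *Fabp4* and *Ucp1* of this list were at least 0.5 lower in the TRKC+/- library than in both WT libraries. In the AdNTF3-Tg library *Lep* was at least 0.5 lower than in both, with 3 reads against 10 and 15, and *Ucp1* and *Fabp4* were lower by less than 0.5 with counting intervals that left out 0. The part of muscle, sensory neuron and adipocyte RNA in the differences of channel genes was not tested. As a check of the labels, *Ntrk3*, which encodes TRKC, had 78, 83, 91 and 76 reads, so it was not lower in the library with the TRKC+/- label. In other samples the paper reports reduced expression of this gene in SG of TRKC+/- mice. The reads here are a count over the whole gene in 1 pool. The NT-3 gene *Ntf3* had 0, 0, 2 and 0 reads. The transgene is driven in adipocytes, so this count in ganglia could not check the AdNTF3-Tg label. In bulk ganglia, fewer cells of a type and less RNA per cell cannot be told apart.

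Several sodium channel alpha genes are near copies of each other in part of their coding sequence, which bears on how their reads were divided. Over 50-base windows, the length of the reads, 8.05% of the windows of the *Scn3a* transcript, 7.80% of *Scn2a*, 5.47% of *Scn1a* and 5.38% of *Scn9a* were also found in another channel gene. These 4 were the only members whose estimated reads were not whole numbers. Of the other members with a transcript in the annotation, 26 shared no window, and 6 shared a few windows and still had whole numbers. The genes *Scn3a*, *Scn2a*, *Scn1a*, *Scn9a* and *Scn7a* all lie on chromosome 2, between 65295175 and 66622971 (NCBIM37). *Scn7a*, the member with the most alpha subunit FPKM, shared no 50-base window with another member.

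**Figure D1:**
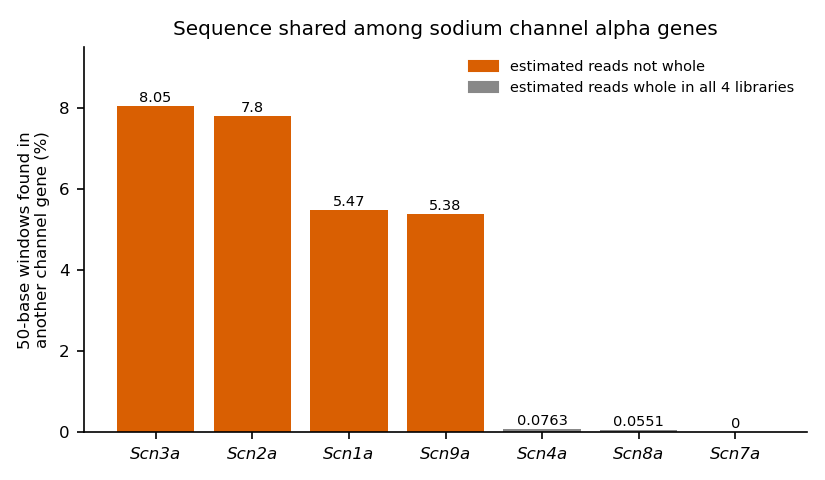
The bars give the percentage of 50-base windows of each sodium channel alpha transcript drawn that is also found in another channel gene, coloured by whether the deposited read estimates were whole numbers. The 4 genes with 5.38% to 8.05% shared windows were those with estimates that were not whole, and *Scn4a*, *Scn8a* and *Scn7a* lay at 0.0763% or less.

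Of the 36 listed members, 26 had a mean of at least 1 FPKM over the 4 libraries and 10 were lower. Every subunit family had at least 1 member above that level, among them 5 of 9 calcium alpha1, 3 of 4 alpha2delta, 3 of 4 calcium beta and 6 of 8 gamma genes. Within families, the order of levels was held in all 4 libraries for most neighbouring pairs. Among the genes described here, the exception was *Cacna2d1* over *Cacna2d3*, held in 3 of 4 libraries. The ranges over the 4 libraries also overlapped for *Cacng4* and *Cacng2*, for *Cacng5* and *Cacng8*, and for *Scn2a* and *Scn1a*, although the order of each pair was the same in 4 of 4 libraries.

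**Figure D2:**
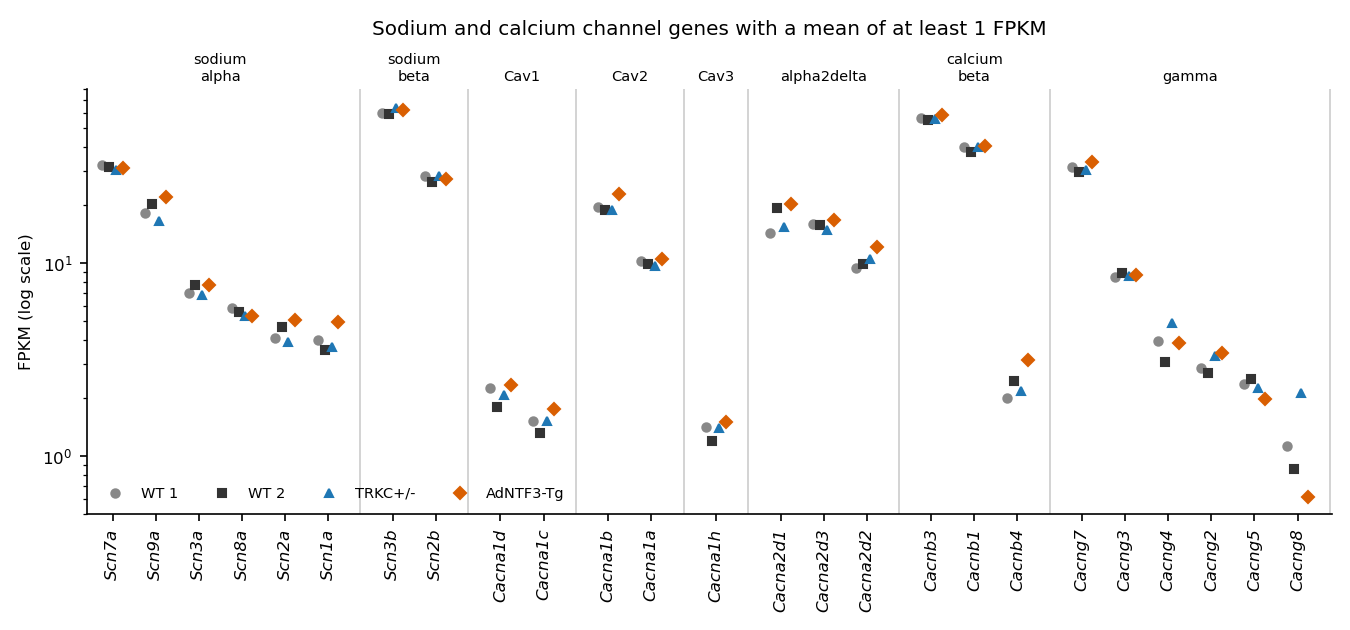
Each point is the FPKM of 1 library on a log axis for 25 of the 26 members with a mean of at least 1 FPKM, grouped by subunit family and ordered by mean. The auxiliary subunits *Scn3b*, *Cacnb3* and *Cacnb1* lie highest, between 37.51 and 63.33 FPKM, and *Cacng8* has the widest spread between libraries.

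Among sodium channel alpha genes, *Scn7a* was highest, followed by *Scn9a*. *Scn7a* encodes an atypical member thought to sense extracellular sodium rather than voltage, and it stood at 32.34 FPKM in WT 1, 31.24 in WT 2, 30.43 in the TRKC+/- library and 31.12 in the AdNTF3-Tg library. *Scn9a* encodes a channel that amplifies small depolarisations in sympathetic and nociceptive neurons, and its FPKM values in the same order were 18.25, 20.18, 16.53 and 22.04. Together these genes dominated the family, *Scn7a* with 40.5% to 45.1% and *Scn9a* with 24.5% to 28.7% of the summed alpha FPKM of each library. *Scn3a*, a channel prominent in developing neurons, was at 7.02, 7.64, 6.84 and 7.64 FPKM. *Scn8a*, the main channel of mature nodes of Ranvier and axon initial segments, was at 5.85, 5.59, 5.28 and 5.33 FPKM, below *Scn3a* in each library. *Scn2a* had 4.07, 4.68, 3.87 and 5.08 FPKM, and *Scn1a* had 4, 3.53, 3.66 and 4.95 FPKM. Both are best known as channels of central neurons, and both were highest in the AdNTF3-Tg library. The skeletal muscle channel *Scn4a* had 8, 7, 7 and 1 reads.

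Among sodium channel beta genes, *Scn3b* was highest, and it was also the highest of all members, at 59.49 FPKM in WT 1, 58.79 in WT 2, 63.33 in the TRKC+/- library and 61.85 in the AdNTF3-Tg library. *Scn2b*, which binds the alpha subunit through a disulfide bond, was at 28.36, 26.19, 28.19 and 27.10 FPKM. *Scn4b*, the relative of *Scn2b*, had 14, 7, 14 and 19 reads. *Scn2b* and *Scn4b* are neighbours on the plus strand of chromosome 9, at 44925959 to 44938153 and 44946520 to 44962235 (NCBIM37), with mean levels of 27.5 and 0.368 FPKM. The 250 bases before their annotated starts, from RefSeq on GRCm38.p6, are shown to set their base composition beside those levels, with each CG dinucleotide in capitals. They lie at chr9:45117626-45117875 and chr9:45138374-45138623, respectively.
Scn2b: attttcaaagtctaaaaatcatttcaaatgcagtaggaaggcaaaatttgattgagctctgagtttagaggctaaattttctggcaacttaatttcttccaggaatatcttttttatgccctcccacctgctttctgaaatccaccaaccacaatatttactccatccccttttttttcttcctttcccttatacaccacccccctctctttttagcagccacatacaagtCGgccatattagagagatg
Scn4b: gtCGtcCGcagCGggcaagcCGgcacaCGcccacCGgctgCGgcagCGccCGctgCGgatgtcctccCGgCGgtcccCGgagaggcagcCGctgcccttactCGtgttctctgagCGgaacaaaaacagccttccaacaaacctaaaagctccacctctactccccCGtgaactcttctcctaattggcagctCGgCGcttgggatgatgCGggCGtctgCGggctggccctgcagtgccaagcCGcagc
The *Scn2b* stretch held 1 CG and the *Scn4b* stretch 23, so the neighbour with more CG was the one with less RNA. Across members the medians lay the other way. For each gene the promoter with the highest ratio of observed to expected CG was taken. The median ratio was 0.734 over the 20 members of at least 1 FPKM with a promoter in the table. It was 0.403 over the 7 lower members and 0.403 over all 27025 genes with a promoter, whether or not listed in these libraries. The 7 include *Cacng6* (0.300), listed in no table, without which the middle values were 0.403 (*Cacna1f*) and 0.676 (*Cacna1i*). A gene with several starts has more chances of a high ratio. Of the 7 only *Cacnb2* had more than 1 start, while *Cacnb4*, *Cacna1c* and others of the 20 did. The GC box GGGCGG, searched on both strands in windows of the same length, was found in 14 of 38 member promoters and in 32.7% of all promoters. The TATA box TATAAA was found in 2 of 38 and in 12.4% of all.

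Among calcium channel pores, *Cacna1b* was highest. It encodes the N-type channel, the main route of calcium entry for noradrenaline release from sympathetic endings, and was at 19.38 FPKM in WT 1, 18.87 in WT 2, 18.91 in the TRKC+/- library and 22.70 in the AdNTF3-Tg library. *Cacna1a*, the P/Q-type channel of many central synapses, was at 10.23, 9.82, 9.65 and 10.51 FPKM. *Cacna1b* held 64.7% to 67.4% of the Cav2 FPKM in each library, and the R-type channel *Cacna1e* was at 0.35 to 0.51 FPKM. The L-type genes were lower, with *Cacna1d* at 2.26, 1.79, 2.08 and 2.32 FPKM and *Cacna1c* at 1.51, 1.31, 1.52 and 1.76 FPKM. *Cacna1d*, which opens at more negative voltages than *Cacna1c*, was the higher of the pair in each library. The retinal channel *Cacna1f* had 1 to 5 reads. Of the T-type genes, *Cacna1h* was at 1.42, 1.20, 1.40 and 1.5 FPKM and made up 81.1% to 87.0% of the family, while *Cacna1g* had 11 to 22 reads and *Cacna1i* 2 to 4.

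The alpha2delta genes summed to 39.7 to 48.8 FPKM per library and the calcium channel beta genes to 95.4 to 102 FPKM, against 29.1 to 33.7 FPKM for the Cav2 pores. *Cacna2d1*, a binding site of gabapentin, was at 14.25 FPKM in WT 1, 19.22 in WT 2, 15.38 in the TRKC+/- library and 20.17 in the AdNTF3-Tg library, so that the WT libraries differed from each other. *Cacna2d3* was steady at 15.98, 15.65, 14.82 and 16.63 FPKM. *Cacna2d2*, the other gabapentin-binding subunit, was at 9.45, 9.90, 10.52 and 12.03 FPKM. *Cacna2d4* had 1 read, in WT 1. Of the beta subunits, *Cacnb3*, a common partner of N-type channels, was at 56.53, 55.12, 55.91 and 58.25 FPKM, and its share of the family was 56.9% to 57.8%, the narrowest range of any leading subunit. *Cacnb1*, known best from skeletal muscle, was at 40.11, 37.51, 39.99 and 40.17 FPKM. *Cacnb4* was at 2, 2.45, 2.17 and 3.15 FPKM, and *Cacnb2*, the main cardiac form, had 3, 12, 4 and 5 reads.

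Of the gamma genes, *Cacng7* was highest, at 31.43, 29.44, 30.43 and 33.35 FPKM. Its level and that of *Cacng4* are per coding base, since the deposited lengths, 828 and 984 bases, equalled the coding length without untranslated regions. This limits the comparison of their levels with those of other genes. *Cacng3*, a partner of AMPA receptors, was at 8.43, 8.9, 8.57 and 8.71 FPKM. *Cacng4* was at 3.95, 3.08, 4.86 and 3.84 FPKM, *Cacng2*, or stargazin, at 2.84, 2.68, 3.29 and 3.42 FPKM, and *Cacng5* at 2.35, 2.50, 2.24 and 1.96 FPKM. All 3 lay between 1.96 and 4.86 FPKM. *Cacng8*, also an AMPA receptor partner, had 13, 10, 25 and 7 reads, or 1.13, 0.86, 2.13 and 0.61 FPKM. This was the widest relative spread of the 26 members, 3.49 times from lowest to highest. Its mean was 1.18 FPKM over the 4 libraries and 0.995 over the WT libraries. Its place among the 26 therefore rested on the TRKC+/- library, where it was highest. *Cacng1*, the skeletal muscle subunit, had 0, 0, 2 and 1 reads. *Cacng7*, *Cacng8* and *Cacng6* are neighbours on chromosome 7, and their levels ran from the highest of the family to no listing in any table.

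The first comparison asked whether channel genes differed between the library labelled TRKC+/- and WT. A gene was counted where its log2 ratio of FPKM, with 0.1 added to each value, was at least 0.5 in the same direction against WT 1 and against WT 2. Of the 34 members listed in all 4 tables, 1 was higher by this count (*Cacng8*), beside 1.78% of all genes, with log2 ratios of 0.86 against WT 1 and 1.22 against WT 2. Its 95% counting intervals ran from -0.12 to 2.0 and from 0.21 to 2.54, so the difference exceeded counting error against WT 2 and not against WT 1. No member was lower, beside 2.49% of all genes. The quasi-likelihood test of edgeR, in which the single mutant library was assumed to vary like the 2 WT libraries, called 0 of 31 members tested, beside 0.00706% of the 14156 genes tested. No member reached an unadjusted p under 0.05 in that test, which 273 genes did (1.93%), and DESeq2 also called 0 members, beside 0.0141% of all genes. The lowest adjusted p of a member was 0.999 (edgeR).

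*Scn9a* was lower in the TRKC+/- library than in both WT libraries, at 16.53 FPKM against 18.25 and 20.18. The log2 differences were -0.14 (counting interval -0.25 to -0.04) and -0.29 (-0.39 to -0.18), under the cutoff, and the fitted log2 fold change was -0.22 with an SE of 0.10 and an adjusted p of 0.999 (edgeR). WT 1 and WT 2 differed by -0.14 in the same gene (-0.24 to -0.04), so 1 of the 2 differences was no larger than that between libraries of 1 genotype. *Scn3b* was higher by 0.09 and 0.11 with intervals that left out 0. These 2 genes were the only members whose intervals left out 0 in 1 direction against both WT libraries, 1 of 34 higher beside 2.34% of all genes and 1 of 34 lower beside 2.12%. The median log2 difference of the 26 members of at least 1 FPKM from the mean of both WT libraries was -0.016, beside 0.0066 over all genes at that level, and 12 of the 26 were higher, beside 51.9% of all genes at that level. The TRKC+/- library lay above both WT libraries in 6 of the 26 members, beside 32.6% of all genes at that level, and below both in 8, beside 30.5%.

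The second comparison asked the same of the AdNTF3-Tg library. No member was higher by at least 0.5 against both WT libraries, beside 2.12% of all genes, and 1 member, *Scn4a*, was lower, beside 3.58%. The difference of *Scn4a* rested on 1 read against 8 and 7. edgeR called 0 of 31 members, beside 0% of the 14156 genes, with a lowest adjusted p of 0.817 among members. At an unadjusted p under 0.05 the test held 4 members, all higher (*Cacna1b*, *Cacna2d2*, *Scn1a* and *Cacnb4*), and 832 genes in all (5.88%), and DESeq2 called 0 members and 0 genes.

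Smaller differences ran mostly upwards in the AdNTF3-Tg library. It lay above both WT libraries in 17 of the 26 members of at least 1 FPKM, beside 34.5% of all genes at that level, and below both in 5, beside 34.7%. It was the highest of the 4 libraries in 16 of the 26, beside 27.6% of all genes. The members' median log2 difference from the mean of both WT libraries was 0.10, and 20 of 26 were higher, beside a median of 0.0036 and 50.8% higher over all genes at that level. Against WT 1 alone the members' median was 0.057, and against WT 2 alone 0.098. Counting intervals left out 0 in the higher direction against both WT libraries for 5 of the 34 members, beside 4.84% of all genes, and in the lower direction for 0, beside 5.31%.

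These 5 were 2 sodium channel pores, the N-type pore and 2 calcium channel auxiliary subunits. *Cacna1b*, at 22.70 FPKM against 19.38 and 18.87, was higher by 0.23 (counting interval 0.11 to 0.34) and 0.27 (0.15 to 0.38). *Scn1a*, at 4.95 FPKM against 4 and 3.53, was higher by 0.30 (0.07 to 0.53) and 0.48 (0.25 to 0.73). *Cacnb4*, at 3.15 FPKM against 2 and 2.45, was higher by 0.63 (0.34 to 0.97) and 0.35 (0.06 to 0.66). In each of these genes the WT libraries did not differ from each other beyond counting error, and the mutant library lay outside them. *Cacna2d2* was higher by 0.35 (0.16 to 0.52) and 0.28 (0.10 to 0.46), and *Scn9a* by 0.27 (0.17 to 0.37) and 0.13 (0.03 to 0.22). In *Scn9a* the WT libraries differed by -0.14 (-0.24 to -0.04), which was larger in size than the difference from WT 2. The fitted log2 fold changes were 0.25 (SE 0.09) for *Cacna1b*, 0.40 (SE 0.15) for *Scn1a*, 0.50 (SE 0.20) for *Cacnb4*, 0.32 (SE 0.12) for *Cacna2d2* and 0.20 (SE 0.10) for *Scn9a*, each with an adjusted p of 0.817 (edgeR). *Cacna2d1* was higher by 0.50 against WT 1 (0.37 to 0.62) and by 0.07 against WT 2 (-0.04 to 0.18), so its difference rested on which WT library was the control.

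**Figure D3:**
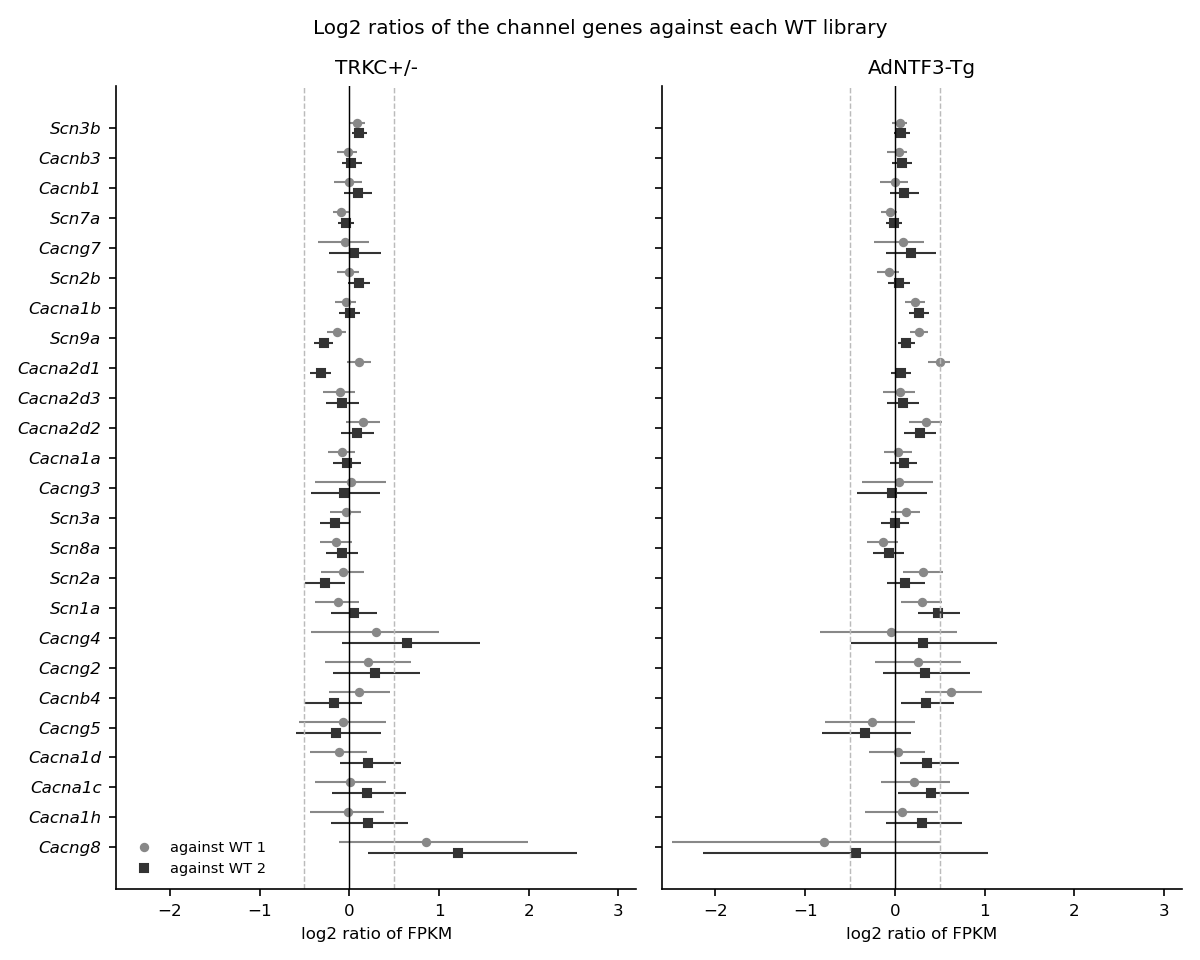
Points are log2 ratios of FPKM of 25 of the 26 members of at least 1 FPKM, ordered by mean level, against WT 1 (circles) and WT 2 (squares), and lines are exact 95% counting intervals of the reads. Dashed lines mark the cutoff of 0.5 either way. The left panel (TRKC+/-) is spread about 0, and the right panel (AdNTF3-Tg) has *Cacna1b*, *Scn9a*, *Cacna2d2*, *Scn1a* and *Cacnb4* to the right of 0 with all intervals.

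In the AdNTF3-Tg library the log2 differences of all genes moved with gene length, and many channel genes are long. Over all genes of at least 1 FPKM, the median difference from the mean of both WT libraries was -0.10 for genes under 2000 bases, 0.076 for genes of 4000 to 7000 bases and 0.12 for the 794 genes of 7000 bases or more. In this longest class 82.1% of all genes were higher, and so were 11 of the 13 members in it, whose median was 0.20. AdNTF3-Tg was the highest of the 4 libraries in 60.3% of all genes of this length and in 10 of the 13 members. In the TRKC+/- library the median of the longest class was -0.019, with 43.7% of genes higher, and that of its 13 members was -0.054, with 3 higher. Log2 differences were therefore also centred on the median of all genes within 20 bins of length, an alternative chosen after the data were seen. The members' median in the AdNTF3-Tg library was then 0.084, with 18 of 26 higher. *Cacnb4* was then at 0.51 and 0.24 against WT 1 and WT 2, *Scn1a* at 0.18 and 0.36, *Cacna2d2* at 0.26 and 0.20, and *Cacna1b* at 0.13 and 0.17, each below its value before centring. *Scn9a* was at 0.15 and 0.013, *Scn3a* at 0.0045 and -0.11, and *Scn8a*, the longest of the 26 members, at -0.25 and -0.18. *Cacng7* moved to 0.33 and 0.33, a value that depends on its length of coding bases alone. The part of gene length in the members' differences was not tested beyond this centring.

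**Figure D4:**
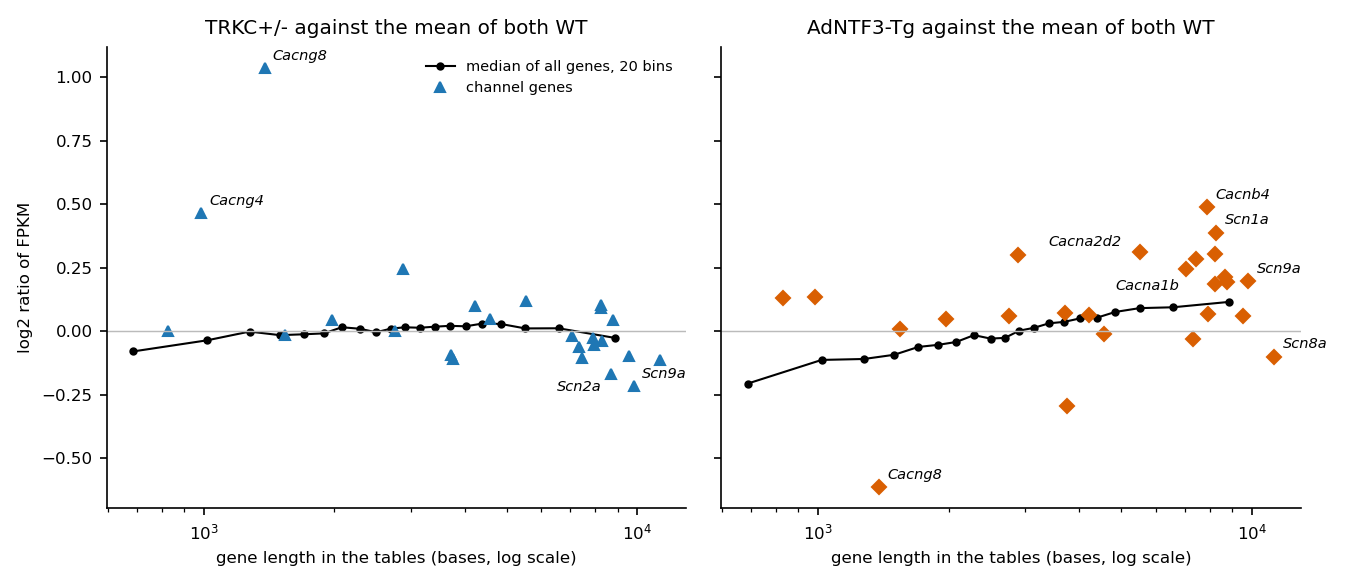
Coloured points are the log2 ratios of 25 of the 26 members of at least 1 FPKM to the mean of both WT libraries against gene length on a log axis, and the black line joins the medians of all genes in 20 bins of length. The line rises from -0.21 to 0.12 in the AdNTF3-Tg panel and stays between -0.079 and 0.031 in the TRKC+/- panel.

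Set directly beside each other, the mutant libraries differed by 0.41 in *Scn9a* (counting interval 0.31 to 0.51), at 22.04 FPKM in AdNTF3-Tg and 16.53 in TRKC+/-, a comparison that does not involve the WT libraries. The WT values, 18.25 and 20.18, lay between them. The fitted log2 difference was 0.42 (SE 0.11) with an adjusted p of 0.940 (edgeR), and after centring within length bins it was 0.28. *Scn1a* (0.43), *Scn2a* (0.38), *Cacna2d1* (0.39), *Cacnb4* (0.52) and *Cacna1b* (0.26) were also higher in AdNTF3-Tg with intervals that left out 0, and *Cacng8* was lower by 1.65 with 7 reads against 25. *Cacna2d2* was higher by 0.19 (0.02 to 0.36). In all, 7 of the 34 members were higher by this count, beside 10.6% of all genes, and 1 was lower, beside 11.7%. Of these 7, 6 were 7000 bases or longer, a class in which the median of all genes of at least 1 FPKM was 0.13 higher in AdNTF3-Tg than in TRKC+/-. After centring within length bins the differences were 0.29 in *Scn1a*, 0.25 in *Scn2a*, 0.25 in *Cacna2d1*, 0.38 in *Cacnb4* and 0.17 in *Cacna1b*, and the median of the 26 members went from 0.11 to 0.058. edgeR called 0 members, beside 0.00706% of all genes, with 5 members (663 genes, 4.68%) at an unadjusted p under 0.05, and DESeq2 called 0 members, beside 0.00706%.

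The size of these differences can be read against the WT libraries. Between WT 1 and WT 2, 4 of the 34 members differed by at least 0.5 either way, beside 13.4% of all genes. All 4 were below 1 FPKM (*Scn4b*, *Cacna1g*, *Cacnb2* and *Cacna1f*), and 0 of the 26 members of at least 1 FPKM did, beside 7.26% of all genes at that level. *Cacna2d1* differed most among the 26, by -0.43 (counting interval -0.55 to -0.30). The median absolute difference of the 26 members was 0.11, beside 0.13 over all genes at that level. WT 2 was the lowest of the 4 libraries in 12 of the 26 members, beside 25.9% of all genes.

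Proteins that hold or regulate these channels were described from lists. Of 15 sodium channel partners, the most abundant were the scaffold *Ank2* (186 to 204 FPKM) and the adhesion proteins *Cntn1* (35.3 to 42.8 FPKM), *Nrcam* (34.5 to 38.4 FPKM) and *Nfasc* (29.7 to 35.1 FPKM). *Nfasc*, which anchors sodium channels at the axon initial segment and the node, was at 30.77, 31.01, 29.66 and 35.10 FPKM, highest in AdNTF3-Tg. None of the 15 passed the cutoff against both WT libraries in either mutant, beside 1.78% of all genes higher and 2.49% lower in TRKC+/- and 2.12% and 3.58% in AdNTF3-Tg. Their median log2 difference was 0.0013 in the TRKC+/- library and 0.15 in the AdNTF3-Tg library, the latter 0.069 after centring within length bins. Of 18 calcium channel partners listed in all 4 tables, 1 passed the cutoff, as higher in AdNTF3-Tg, beside 2.12% of all genes, and the list's median was -0.045 in the TRKC+/- library and 0.056 in the AdNTF3-Tg library. That gene was *Rem2*, a small GTPase that inhibits calcium channels through their beta subunits, with 5, 2, 3 and 20 reads and 0.31, 0.12, 0.18 and 1.25 FPKM. It was higher in the AdNTF3-Tg library by 1.72 against WT 1 and 2.62 against WT 2, with counting intervals that left out 0, from a level at or near the floor of 3 reads in the other libraries. The synaptic protein *Snap25*, which Cav2 channels bind, was at 787, 871, 873 and 861 FPKM.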

How the data were processed

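Poly(A) RNA of pooled SG was sequenced with 50-base single-end reads, which per the methods were filtered with SOAPnuke (v1.5.2) and mapped with HISAT2 (v2.0.4) to mm9, while the submitters' processing notes name RSEM and mm10. The build behind the tables is therefore not settled, and the strand setting of the counting is not given in the sources used here. For each gene identifier the authors deposited an expected count, a read estimate that need not be whole (92.6% to 93.7% were), an FPKM value, scaled to length and library, and a gene length, weighted over transcripts.

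Groups were taken from the sample labels. Symbols came from a RefSeq table on GRCm38.p6, not used for gene coordinates, in which 17619 identifiers (99.7%) had an entry. Positions and transcripts are those of GENCODE on NCBIM37 (mm9). Expected counts, rounded to whole numbers, were tested with edgeR 4.0.16 (TMM, filterByExpr, quasi-likelihood, Benjamini-Hochberg over all genes tested) on all 4 libraries, with 1 residual degree of freedom and a biological coefficient of variation of 8.16%. P-values measure only the spread between these libraries. Log2 ratios were of FPKM plus 0.1 over genes listed in all 4 tables. The 95% intervals are exact (Clopper-Pearson) and cover counting error only. Shared windows were counted by exact match of 50 bases between 1 transcript per member. Motifs were searched on both strands as exact letters.

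Members of at least 1 FPKM are named, as are members past the cutoff, and up to 4 genes of a partner or marker list. The members and lists were chosen with earlier results of these data known. *Rem2* met the rule for lists. *Trpv1*, *Mrgprd* and other genes at low levels were named after their values were seen. Of the genes that the name pattern includes, 3 were set aside, and some others are not reported here singly, though they enter the counts and medians over members. Alternatives were other pseudocounts, filters, scalings, controls and cutoffs, DESeq2 1.42.0, and centring by gene length. The scripts were tested on simulated data.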

Additional observations from a re-analysis of the deposited data

How the results depend on the processing

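No member was called by edgeR without the filter on low counts, with DESeq2 size factors, with library totals in place of TMM, or by DESeq2. Genes called over the whole table, 1, 0 and 1 for TRKC+/-, AdNTF3-Tg and the direct contrast, became 4, 5 and 2 with library totals, 0, 0 and 0 without the filter, 2 for TRKC+/- with DESeq2 size factors and 2 for TRKC+/- by DESeq2. Leaving out a WT library left no residual degrees of freedom, so no test was run there. No paired analysis was possible because the labels number the WT libraries alone and each mutant group is 1 library.

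Genes past the cutoff in the TRKC+/- library (653 in all, 1 member) became 105 with a pseudocount of 1, 209 among genes of at least 1 FPKM, 1315 (2 members) with missing genes taken as 0, 1308 (2 members) against the mean of both WT libraries, and 136 (0 members) at a cutoff of 1. In the AdNTF3-Tg library (871, 1 member) they became 165 (0 members) with a pseudocount of 1, 332 (0 members) among genes of at least 1 FPKM, 1552 (2 members) with missing genes taken as 0, 1674 (4 members) against the WT mean and 179 (0 members) at a cutoff of 1, and a pseudocount of 0.01 gave 3 members. Against a single WT library the counts ran from 1632 to 1933 (1 to 4 members) for TRKC+/- and from 2033 to 2116 (3 to 5 members) for AdNTF3-Tg. Between WT 1 and WT 2 (2044, 4 members) they were 633 (0 members) with a pseudocount of 1, 926 (0 members) among genes of at least 1 FPKM and 3381 with missing genes taken as 0. The share of calls that were higher moved by over 10 points under some settings: TRKC+/- had 272 higher and 381 lower, against 1029 and 904 without WT 1, and AdNTF3-Tg had 324 and 547, against 90 and 242 among genes of at least 1 FPKM.

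The members' median of -0.016 for TRKC+/- lay between -0.019 and 0.019 with single WT libraries, and that of 0.070 for AdNTF3-Tg (34 members) was 0.057 to 0.098 with single WT libraries and 0.10 among genes of at least 1 FPKM. The median of the sodium channel partners in AdNTF3-Tg, 0.15, was 0.14 with a pseudocount of 1, 0.12 to 0.13 with single WT libraries and 0.069 after centring by length, and in TRKC+/- it was -0.049 to 0.034 with single WT libraries. For calcium channel partners it was -0.020 (TRKC+/-) and 0.026 (AdNTF3-Tg) among genes of at least 1 FPKM, 0.091 in AdNTF3-Tg after centring, -0.027 to -0.0020 (TRKC+/-) with single WT libraries, and 0.059 to 0.061 (AdNTF3-Tg). Of 260 log2 differences of the 26 members of at least 1 FPKM, recomputed with both WT libraries kept, 17 moved by more than the spread between the WT libraries, 13 of them after centring by length and 4 with a pseudocount of 1. With a single WT library the differences moved by up to 0.21, in *Cacna2d1*, whose difference of 0.28 in AdNTF3-Tg became 0.069 without WT 1 and 0.50 without WT 2. The cause was not tested.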
